A study of Danio rerio with 2 samples.

Results

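The 9 heat shock chaperone genes described here are *hspa1b*, *hsp70.1*, *hspa8b*, *hspa8*, *hsp90aa1.1*, *hsp90aa1.2*, *hsp90ab1*, *hspa5* and *dnajb1b*, out of 32059 genes counted in each library. They were chosen by symbol with their mutant over control ratios already known from these libraries, so those ratios are given as descriptions. All 9 symbols had a row, and each matched 1 gene identifier. The single-cell libraries were made from 4 dpf *Tg(Brn3c:mGFP)* zebrafish larvae, whose membrane GFP is driven in hair cells of the inner ear and lateral line, after trypsin dissociation and sorting of GFP-positive cells. No drug was given to either genotype. One library came from *hsd17b7* mutants, labelled hsd17b7-KO and described by the study as carrying a small frameshift deletion, and the other from controls labelled Wild-type, both on the same reporter background. With 1 library per genotype there were no replicates, so no difference was tested, and every interval below covers counting error only.

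Chaperones keep proteins folded. Members of the Hsp70 family bind stretches of unfolded protein in an ATP-driven cycle, DnaJ (Hsp40) proteins bring them their clients and start the cycle, and Hsp90 takes over partly folded clients such as kinases and steroid receptors. Most families hold a constitutive form and a form whose gene is switched on by heat shock factors under stress, and *hspa5* (BiP) is the Hsp70 of the endoplasmic reticulum and a target of the unfolded protein response. Enzymatic dissociation and sorting are themselves known to raise stress-inducible chaperone transcripts.

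The library labelled mutant held 10119 barcodes and the library labelled control 19270, of which 8322 in the mutant and 17385 in the control were kept, each with 500 or more detected genes and no more than 20% of its UMIs (unique molecular identifiers, counted transcripts) from mitochondrial genes. The kept barcodes held a median of 6206 UMIs in the mutant and 7491 UMIs in the control, and the libraries shared 49 barcodes, of which 37 were kept in both. Cells were assigned to 6 gates, which can overlap. Hair cells had at least 3 UMIs of *myo6b*, supporting cells at least 1000 CPM of *stm*, neurons 1 UMI or more of *elavl3* and macrophages 1 UMI or more of *mfap4* plus *mpeg1.1*. Skin cells had at least 1% of their UMIs from *krt4* plus *krt5*, and hepatocytes at least 2 UMIs each of *tfa* and *fabp10a*. CPM are UMIs per 1000000 UMIs of the cell or gate. The gates held 1185 mutant and 1414 control hair cells, 359 and 799 supporting cells, 3978 and 3861 neurons, 505 and 498 macrophages, 17 and 42 skin cells, and 767 and 1289 hepatocytes. Of 17 hair cell markers, 17 were at least 2 times higher inside the hair cell gate than outside it in both libraries, and of 12 supporting cell markers 11 in the mutant and 12 in the control were so inside the supporting gate. Each list includes the gene that defines its gate, whose result was fixed by the rule. Inside the hair cell gate, 6 of the 12 supporting cell markers in the mutant and 5 in the control were also at least 2 times higher. The sorted cells were therefore not hair cells alone, and hair cells made up 14.2% of mutant and 8.13% of control kept barcodes. Of the hair cells, 25.2% in the mutant and 27.6% in the control also passed another gate. Over 10% of UMIs came from globin genes in 1 mutant and 6651 control kept barcodes.

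The targeted gene, *hsd17b7*, an enzyme of cholesterol and sex steroid synthesis, did not have a lower level in the mutant library. It had 3643 UMIs, or 216 CPM, in mutant hair cells and 2746 UMIs, or 114 CPM, in control hair cells, a log2 ratio of 0.92 (0.85 to 1.00). In the other gates where both libraries held UMIs the ratio lay between 0.51 in macrophages and 1.40 in hepatocytes. A frameshift need not remove the transcript, and the 3' counts do not show the deletion, so they do not check the genotype labels. Each direction below is between a library labelled mutant and a library labelled control. Their count tables also carry different Cell Ranger versions, and genotype, library and software version cannot be told apart.

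In hair cells the 9 genes fell into 3 sets. *hspa1b*, *hspa8b* and *hsp90aa1.1* were 7.90 to 22.6 times lower in the mutant library, *hsp70.1* was 1.95 times higher, and the other 5 lay within log2 ratios of -0.03 and 0.41. The same 3 genes were the lowest of the 9 in each of the 6 gates, and each was lower in the mutant in each gate. *hsp70.1* was higher in the mutant in all gates except hepatocytes, where the libraries were level. A gene was called lower at a log2 ratio of -1 or below, and higher at 1 or above, where both libraries together held at least 100 UMIs. In hair cells 3 of 9 were called lower and 0 higher, while of all 15584 genes with that many UMIs 17.4% were called lower and 5.31% higher. Nothing is read from that count, since the same ratios were in view when the genes were chosen.

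**Figure D1:**
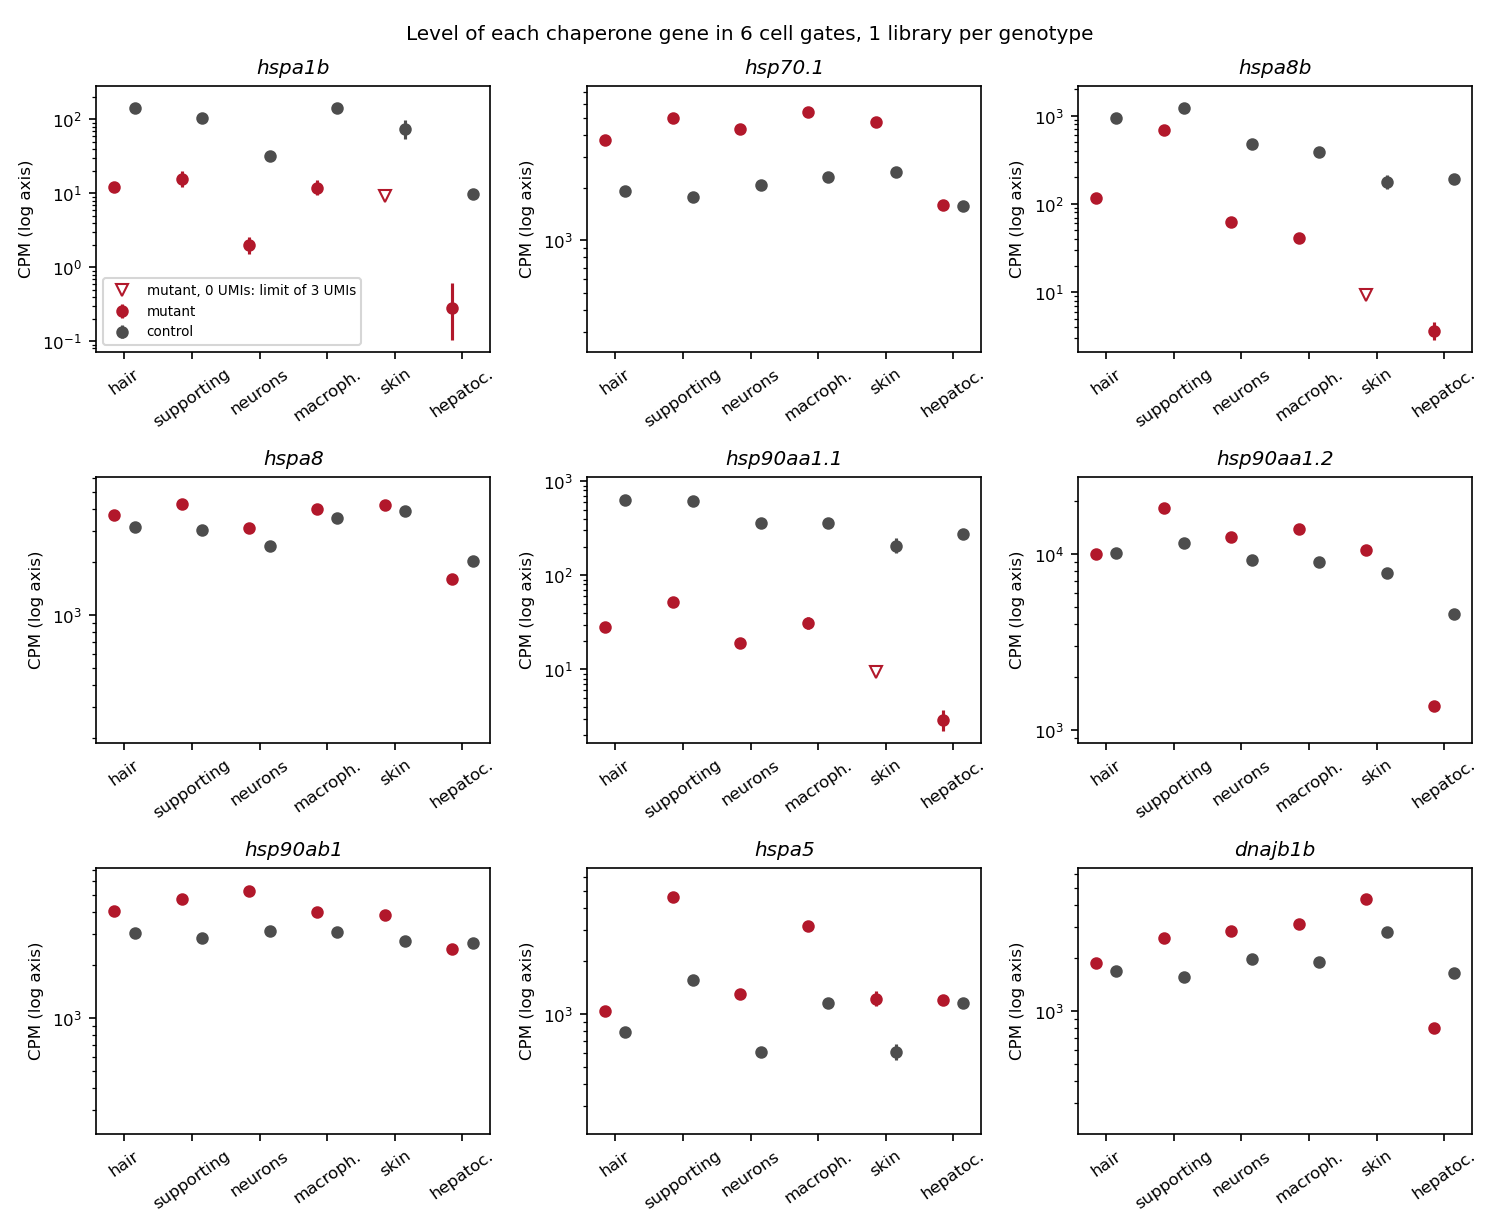
Level of each chaperone gene in CPM (log axis) in 6 cell gates, with the mutant library in red and the control library in grey. Bars are exact Poisson 95% intervals of 1 library each and open triangles mark the level of 3 UMIs where none was counted. *hspa1b*, *hspa8b* and *hsp90aa1.1* sit lower in the mutant in every gate, and *hsp70.1* sits higher in 5 gates and level in hepatocytes.

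The cytosolic Hsp70 genes came first. *hspa1b* (ENSDARG00000056210) shares its name with the stress-inducible human HSPA1 genes. In hair cells it had 204 UMIs, or 12.1 CPM, in the mutant and 3412 UMIs, or 142 CPM, in the control, a log2 ratio of -3.55 (-3.76 to -3.34). Across the other gates the mutant never reached 16 CPM. Supporting cells held 15.6 CPM in the mutant and 106 CPM in the control, macrophages 11.99 CPM in the mutant and 142 CPM in the control, and neurons 2.01 CPM in the mutant and 32.0 CPM in the control. In hepatocytes 6 mutant UMIs stood against 318 control UMIs, which is 0.284 CPM and 9.77 CPM. Within each library hepatocytes were thus at the bottom of the gates with any UMI and neurons next. Hair cells and macrophages did not differ beyond counting error in either library.

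*hsp70.1* (ENSDARG00000029688) is one of the heat-inducible zebrafish Hsp70 genes. It went the other way from *hspa1b*. In hair cells it had 3730 CPM in the mutant and 1909 CPM in the control, a log2 ratio of 0.97 (0.95 to 0.98). The ratio was 1.49 in supporting cells, 1.24 in macrophages, 1.05 in neurons, 0.94 in skin and 0.03 in hepatocytes, where the levels were 1600 CPM in the mutant and 1565 CPM in the control. Control levels lay in a narrow band, 1565 to 2460 CPM over the 6 gates, while mutant levels ran up to 5408 CPM in macrophages.

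In the RefSeq gene table (assembly GRCz12tu) *hsp70.1*, *hsp70.2* and *hsp70.3* lie next to each other. Closely related copies can share reads, and the likeness of these 3 was not measured here, so the split among them is uncertain. The sum of the 3 was 16220 CPM in mutant and 10785 CPM in control hair cells, a log2 ratio of 0.59 (0.58 to 0.60), and in supporting cells it was 21834 CPM in the mutant and 10052 CPM in the control (1.12). *hsp70l*, a further heat-inducible copy that is not their neighbour, had 11017 CPM in mutant and 5826 CPM in control hair cells (0.92). In hepatocytes it was slightly lower in the mutant, with 3371 CPM against 4298 CPM in the control (-0.35). Like *hsp70.1* alone, the sum of the 3 neighbours was higher in the mutant in 5 of the 6 gates, and in hepatocytes its log2 ratio was -0.15.

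*hspa8* (ENSDARG00000068992), the constitutive Hsc70, was close to level. Hair cells had 3706 CPM in the mutant and 3154 CPM in the control, a log2 ratio of 0.23 (0.22 to 0.25), and across the gates the ratio ran between -0.34 in hepatocytes and 0.48 in supporting cells. Its paralog *hspa8b* (ENSDARG00000037403) was not. In hair cells *hspa8b* had 1985 UMIs, or 118 CPM, in the mutant and 22437 UMIs, or 931 CPM, in the control, a log2 ratio of -2.98 (-3.05 to -2.92). Neurons gave 63.1 CPM in the mutant and 478 CPM in the control (-2.92), and macrophages 41.5 CPM in the mutant and 386 CPM in the control (-3.22). The gap was widest in hepatocytes, with 3.65 CPM in the mutant and 190 CPM in the control (-5.71).

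Supporting cells stood apart for *hspa8b*. Their level was 692 CPM in the mutant and 1206 CPM in the control, a log2 ratio of -0.80 (-0.86 to -0.75), the smallest gap of the 3 lower genes in any gate. These 359 cells held 3014 of the 7589 *hspa8b* UMIs of all kept mutant barcodes, or 39.7%, against 17.6% in the 799 control supporting cells. Supporting cells with *irg1l* and no *otogl*, which the study uses as the lateral line type, carried most of it. They had 938 CPM over 229 mutant cells and 1934 CPM over 264 control cells (-1.04, -1.11 to -0.98). Those with *otogl* and no *irg1l*, the inner ear type, had 229.5 CPM over 60 mutant cells and 1276 CPM over 159 control cells (-2.47, -2.69 to -2.27). The intervals of both ratios do not meet, but they cover counting error only, and the difference between the types was not tested. The gap over all supporting cells was smaller than in either type. The lateral line type, with the higher level in each library, made up 229 of 359 mutant and 264 of 799 control supporting cells. The part of this mix in the -0.80 and in the share of UMIs was not tested. The skeletal muscle genes described further on summed to 39.2 CPM in mutant and 1015 CPM in control lateral line type supporting cells. Hair cells that also passed the supporting gate, 67 in the mutant and 140 in the control, had 367 CPM of *hspa8b* in the mutant and 1151 CPM in the control, and hair cells outside it 94.7 CPM in the mutant and 893 CPM in the control. The hair cell ratio was -3.24 outside the supporting gate and -1.65 within it.

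The cytosolic Hsp90 genes split in the same manner. *hsp90aa1.1* and *hsp90aa1.2* lie side by side in the RefSeq table. In zebrafish *hsp90aa1.1* is known for folding myosin in skeletal muscle together with *unc45b*. In hair cells *hsp90aa1.1* (ENSDARG00000010478) had 472 UMIs, or 28.0 CPM, in the mutant and 15258 UMIs, or 633 CPM, in the control, a log2 ratio of -4.50 (-4.63 to -4.37). Control levels ran between 207 CPM in skin and 633 CPM in hair cells. Mutant levels ran between 2.89 CPM in hepatocytes and 52.1 CPM in supporting cells, apart from skin with no UMI. The ratio was -3.56 in supporting cells, -4.23 in neurons, -3.53 in macrophages and -6.58 in hepatocytes.

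In lateral line type supporting cells 7 mutant UMIs stood against 2030 control UMIs of *hsp90aa1.1*, or 2.71 CPM and 511 CPM, a log2 ratio of -7.56 (-8.87 to -6.51). The inner ear type had 160 CPM in the mutant and 1060 CPM in the control (-2.73), but all 137 mutant UMIs came from 5 of the 60 cells. A few cells can therefore set a mutant level of this gene.

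*hsp90aa1.2* (ENSDARG00000024746), the neighbouring Hsp90 alpha copy, was level in hair cells, with 9963 CPM in the mutant and 10191 CPM in the control (-0.03, -0.04 to -0.02). It was higher in the mutant in supporting cells (18432 CPM against 11569 CPM in the control, 0.67), macrophages (0.62), neurons (0.44) and skin (0.44). Hepatocytes went the other way, with 1374 CPM in the mutant and 4573 CPM in the control (-1.74, -1.75 to -1.72). *hsp90ab1* (ENSDARG00000029150), the constitutive Hsp90, had 4062 CPM in mutant and 3065 CPM in control hair cells (0.41, 0.39 to 0.42), with ratios between 0.38 and 0.76 in the other gates except hepatocytes (-0.12).

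**Figure D2:**
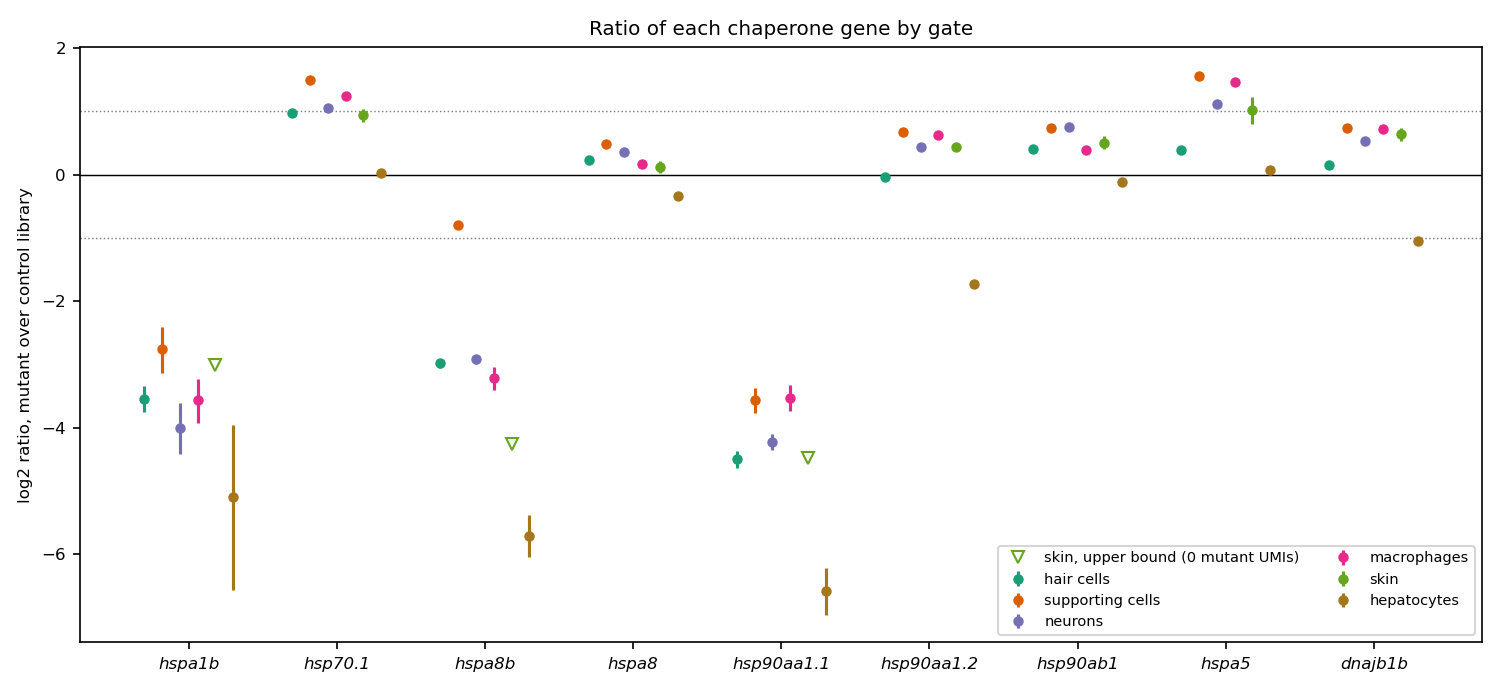
Log2 ratio of each chaperone gene, mutant over control library, in the 6 gates, with 95% counting intervals; dotted lines mark the call threshold of -1 and 1. The 3 lower genes lie between -0.80 and -6.58, the other 6 between -1.74 and 1.56, and hepatocytes give the lowest point of each gene.

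*hsp90aa1.1* and *hspa8b* were the minor members of their pairs. Of the UMIs assigned to *hsp90aa1.1* and *hsp90aa1.2* together, *hsp90aa1.1* took 0.280% in mutant and 5.85% in control hair cells, and 0.210% in mutant and 5.69% in control hepatocytes. Of those assigned to *hspa8* and *hspa8b*, the share of *hspa8b* was 3.08% in mutant and 22.8% in control hair cells, 13.97% in mutant and 28.3% in control supporting cells, and 0.227% in mutant and 8.59% in control hepatocytes. In hair cells the pair sums lay close together, though *hsp90aa1.1* was so small a part that its pair's sum mostly follows *hsp90aa1.2*. There the *hsp90aa1* pair summed to 9991 CPM in the mutant and 10824 CPM in the control (-0.12), and the *hspa8* pair to 3823 CPM in the mutant and 4085 CPM in the control (-0.10). In hepatocytes they did not, with 1376 CPM in the mutant and 4849 CPM in the control for the *hsp90aa1* pair (-1.82) and 1606 CPM in the mutant and 2218 CPM in the control for the *hspa8* pair (-0.47). Paralogs with like sequences can trade reads, but the likeness of these was not measured. The alignments that would settle their split were not analysed here.

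*hspa5* (ENSDARG00000103846) was higher in the mutant outside hepatocytes, and least so in hair cells. The log2 ratio was 1.56 (1.53 to 1.59) in supporting cells, with 4624 CPM in the mutant and 1570 CPM in the control, 1.47 in macrophages, 1.11 in neurons, 1.01 in skin, 0.39 in hair cells and 0.07 in hepatocytes. In hair cells the levels were 1035 CPM in the mutant and 788 CPM in the control. Lateral line type supporting cells held 6391 CPM in the mutant and 3245 CPM in the control (0.98), and the inner ear type 1805 CPM in the mutant and 866 CPM in the control (1.06). The lateral line type thus held the higher level in both libraries, and its share of all supporting cells also differed between them, with 229 of 359 in the mutant and 264 of 799 in the control. The inner ear type made up 60 mutant and 159 control cells, and the rest fell in neither type. The part of this mix in the 1.56 was not tested.

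*dnajb1b* (ENSDARG00000041394), an Hsp40 that works with the inducible Hsp70s, was higher in the mutant in 5 gates and lower in hepatocytes. Hair cells had 1862 CPM in the mutant and 1682 CPM in the control, a log2 ratio of 0.15 (0.13 to 0.17). The ratio was 0.73 in supporting cells, 0.72 in macrophages, 0.63 in skin and 0.53 in neurons, and -1.05 in hepatocytes, with 794 CPM in the mutant and 1648 CPM in the control.

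Summed over the 9 genes, the level was 24516 CPM in mutant and 22493 CPM in control hair cells (0.12). It was 40402 CPM in the mutant and 24310 CPM in the control in supporting cells (0.73), and 9056 CPM in the mutant and 14128 CPM in the control in hepatocytes (-0.64). This sum is not the whole chaperone load. The other cytosolic Hsp70 and Hsp110 genes described further on summed to 24882 CPM in mutant and 16913 CPM in control hair cells. Beyond hair cells, the calls were 2 lower and 2 higher in supporting cells, beside 21.1% and 6.35% of all genes with enough UMIs. They were 3 lower and 2 higher in neurons (all genes: 15.8% and 5.61%) and also in macrophages (all genes: 13.7% and 8.22%). Hepatocytes had 5 lower and 0 higher (all genes: 19.4% and 5.43%). *hsp70.1* at 0.97 in hair cells and *hspa8b* at -0.80 in supporting cells lay just short of the threshold, and *dnajb1b* at -1.05 in hepatocytes just past it. *hspa1b*, *hspa8b* and *hsp90aa1.1* reached 100 UMIs in hepatocytes only through the control library, with 6, 77 and 61 UMIs in the mutant. The same held for *hspa1b* in supporting cells (68 mutant UMIs), neurons (57) and macrophages (78).

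The skin gate was small. *hspa1b*, *hspa8b* and *hsp90aa1.1* had 0 UMIs in its 17 mutant cells, and 3 UMIs would be 9.29 CPM. A count of 3 cells with a UMI would be 17.6% of the 17, a limit on cells with a UMI and not on cells that express the gene. Its 42 control cells held 46, 110 and 128 UMIs of these genes. Against a floor of 3 UMIs over the gate, *hspa8b* was at least 19.2-fold and *hsp90aa1.1* at least 22.3-fold lower in the mutant, and *hspa1b* was at least 8.03-fold lower but did not reach 100 UMIs. Of the 8 genes that did, 2 were called lower, both only through the control library, and 1 higher, beside 18.8% and 9.31% of all genes.

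Hair cells were split by the study's own markers into a lateral line type with *lhfpl5b* and no *lhfpl5a*, 59 mutant and 87 control cells, and an inner ear type with *lhfpl5a* and no *lhfpl5b*, 767 mutant and 835 control cells. The same 3 genes were lower in both types. In the inner ear type the log2 ratios were -3.67 for *hspa1b*, -3.28 for *hspa8b* and -4.49 for *hsp90aa1.1*, and *hsp70.1* was at 1.098. The lateral line type had 307 CPM of *hspa8b* in the mutant and 1156 CPM in the control, a ratio of -1.91 (-2.11 to -1.72) that was nearer to 0 than in the inner ear type. *hspa1b* there had 2 mutant and 190 control UMIs, and all 28 mutant UMIs of *hsp90aa1.1* came from 1 cell, so both passed the minimum only through the control. The calls were 3 lower and 0 higher in the lateral line type (all genes: 18.9% and 9.12%) and 3 lower and 1 higher in the inner ear type (all genes: 15.7% and 5.08%).

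The share of cells with at least 1 UMI showed whether the lower levels came with fewer carrying cells. In hair cells *hsp90aa1.1* was carried by 4.39% (3.29 to 5.72) of mutant and 61.2% (58.6 to 63.7) of control cells, exact binomial intervals. *hspa1b* was carried by 7.85% of mutant and 49.1% of control hair cells, and *hspa8b* by 22.8% of mutant and 90.6% of control hair cells. The other 6 were found in 93.5% or more of hair cells of either library. With each cell thinned to 2000 UMIs, leaving out 15 mutant and 10 control hair cells, the shares were 1.71% in the mutant and 40.2% in the control for *hsp90aa1.1*, 2.22% in the mutant and 21.4% in the control for *hspa1b*, and 10.9% in the mutant and 69.3% in the control for *hspa8b*. Thinned or not, the 3 genes were carried by fewer mutant than control hair cells.

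Carrying cells also held fewer UMIs. They averaged 7.35 UMIs of *hspa8b* in mutant and 17.5 UMIs in control hair cells, 9.08 UMIs in mutant and 17.6 UMIs in control hair cells for *hsp90aa1.1*, and 2.19 UMIs in mutant and 4.92 UMIs in control hair cells for *hspa1b*. A single UMI was all that 63.5% of mutant and 16.6% of control *hsp90aa1.1* carriers had. All 3 genes occurred together in 0.422% of mutant and 32.2% of control hair cells. No gate could serve as a reference known to be without these genes, so *fabp10a*, a hepatocyte gene, gave a measure of free hepatocyte RNA. It was found in 35.02% of mutant and 30.7% of control hair cells. The median hair cell held 12339 UMIs in the mutant and 14388 UMIs in the control. The mutant shares of the 3 genes lie below that of *fabp10a* and are not read as expression. The control shares lie above it, but *fabp10a* stands for hepatocyte RNA alone. Only 25.7% of control hair cells, against 69.4% in the mutant, held no UMI of the skeletal muscle genes described further on. The part of free RNA in the control shares was not tested.

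**Figure D3:**
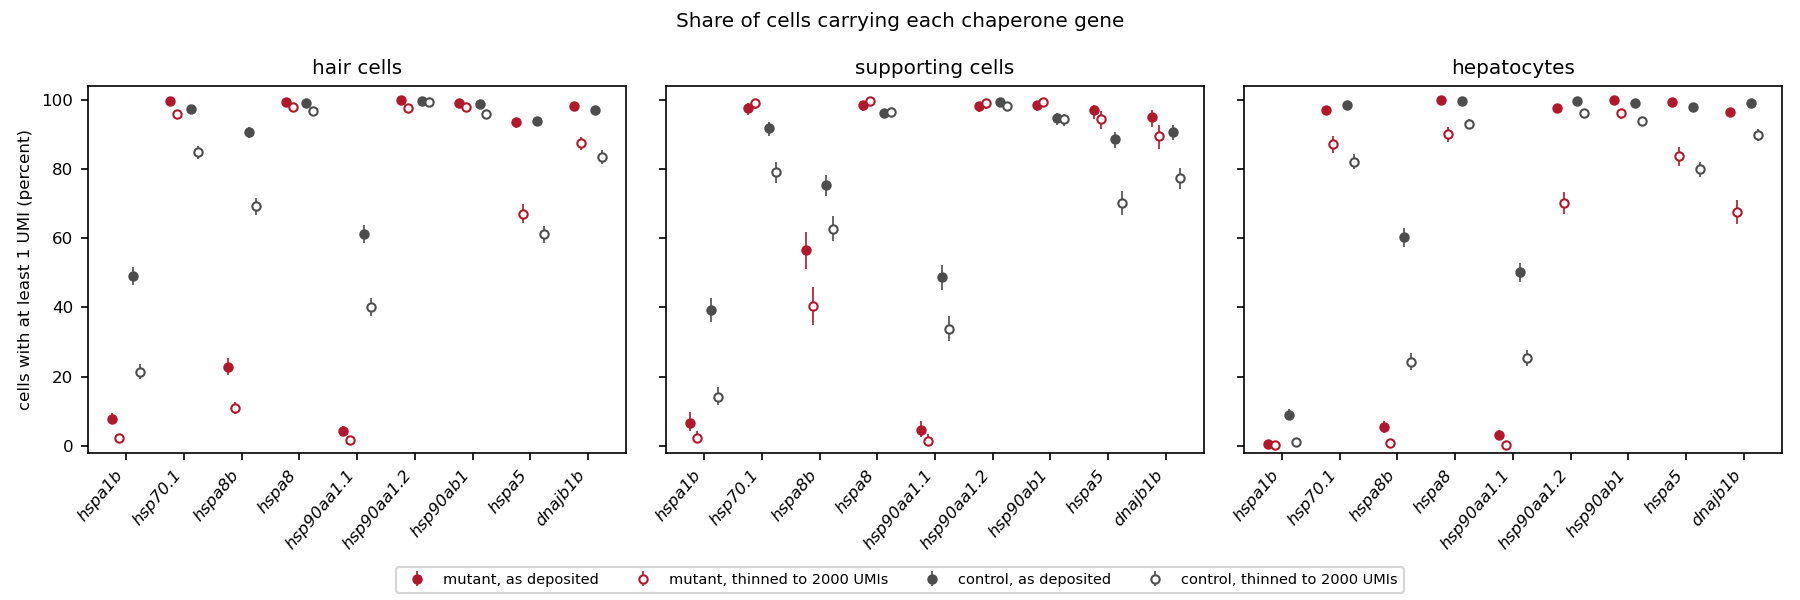
Percent of cells with at least 1 UMI of each chaperone gene in hair cells, supporting cells and hepatocytes, with exact 95% binomial intervals, mutant in red and control in grey; filled points are the deposited counts and open points are cells thinned to 2000 UMIs. For *hspa1b*, *hspa8b* and *hsp90aa1.1* the intervals of the libraries do not meet in the 3 gates, except for thinned *hspa1b* in hepatocytes. Among the other genes the thinned intervals stand apart for *hsp70.1* and *hspa5* in hair and supporting cells and for *hsp90aa1.2* and *dnajb1b* in hepatocytes, among others.

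In other gates the shares of the same genes differed as well. *hspa8b* was found in 56.5% of mutant and 75.3% of control supporting cells, where *fabp10a* was found in 31.2% of mutant and 28.5% of control cells, and in 5.35% of mutant and 60.3% of control hepatocytes. *hspa5* was found in 94.5% of mutant and 70.195% of control supporting cells after thinning. Within the lateral line type these shares were 99.5% in the mutant and 91.3% in the control. Within the inner ear type they were 85.7% in the mutant and 76.3% in the control, with intervals that overlap. In thinned hepatocytes *hsp90aa1.2* was found in 70.26% of mutant and 96.3% of control cells, and *dnajb1b* in 67.6% of mutant and 89.9% of control cells. *hsp90aa1.2*, with a higher level in mutant supporting cells, was found there in 98.3% of mutant and 99.4% of control cells, where nearly every cell carries it. *hspa1b* was the rarest of the 9 in hepatocytes, in 0.652% of mutant and 8.999% of control cells.

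Within a library the 9 genes did not vary from cell to cell in the same way. The median hair cell had 0 CPM of *hspa8b* in the mutant and 785 CPM in the control, with a 90th percentile of 324 CPM in the mutant and 2317 CPM in the control. For *hsp90aa1.1* the control median was 125 CPM and the 90th percentile 1996 CPM, and the tenth of control hair cells with the highest values held 50.5% of its UMIs. *hsp70.1* had a median of 3352 CPM in mutant and 1518 CPM in control hair cells, so the median was higher in the mutant as the sum was. In supporting cells the median of *hspa5* was 4456 CPM in the mutant and 905 CPM in the control, a wider gap than between the sums, and the lower quartile of the mutant, 1668 CPM, was above the control median. The mix of inner ear and lateral line types differed between the libraries in this gate, and its part in these medians was not tested. In hepatocytes the median of *hsp90aa1.2* was 782 CPM in the mutant and 4356 CPM in the control.

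**Figure D4:**
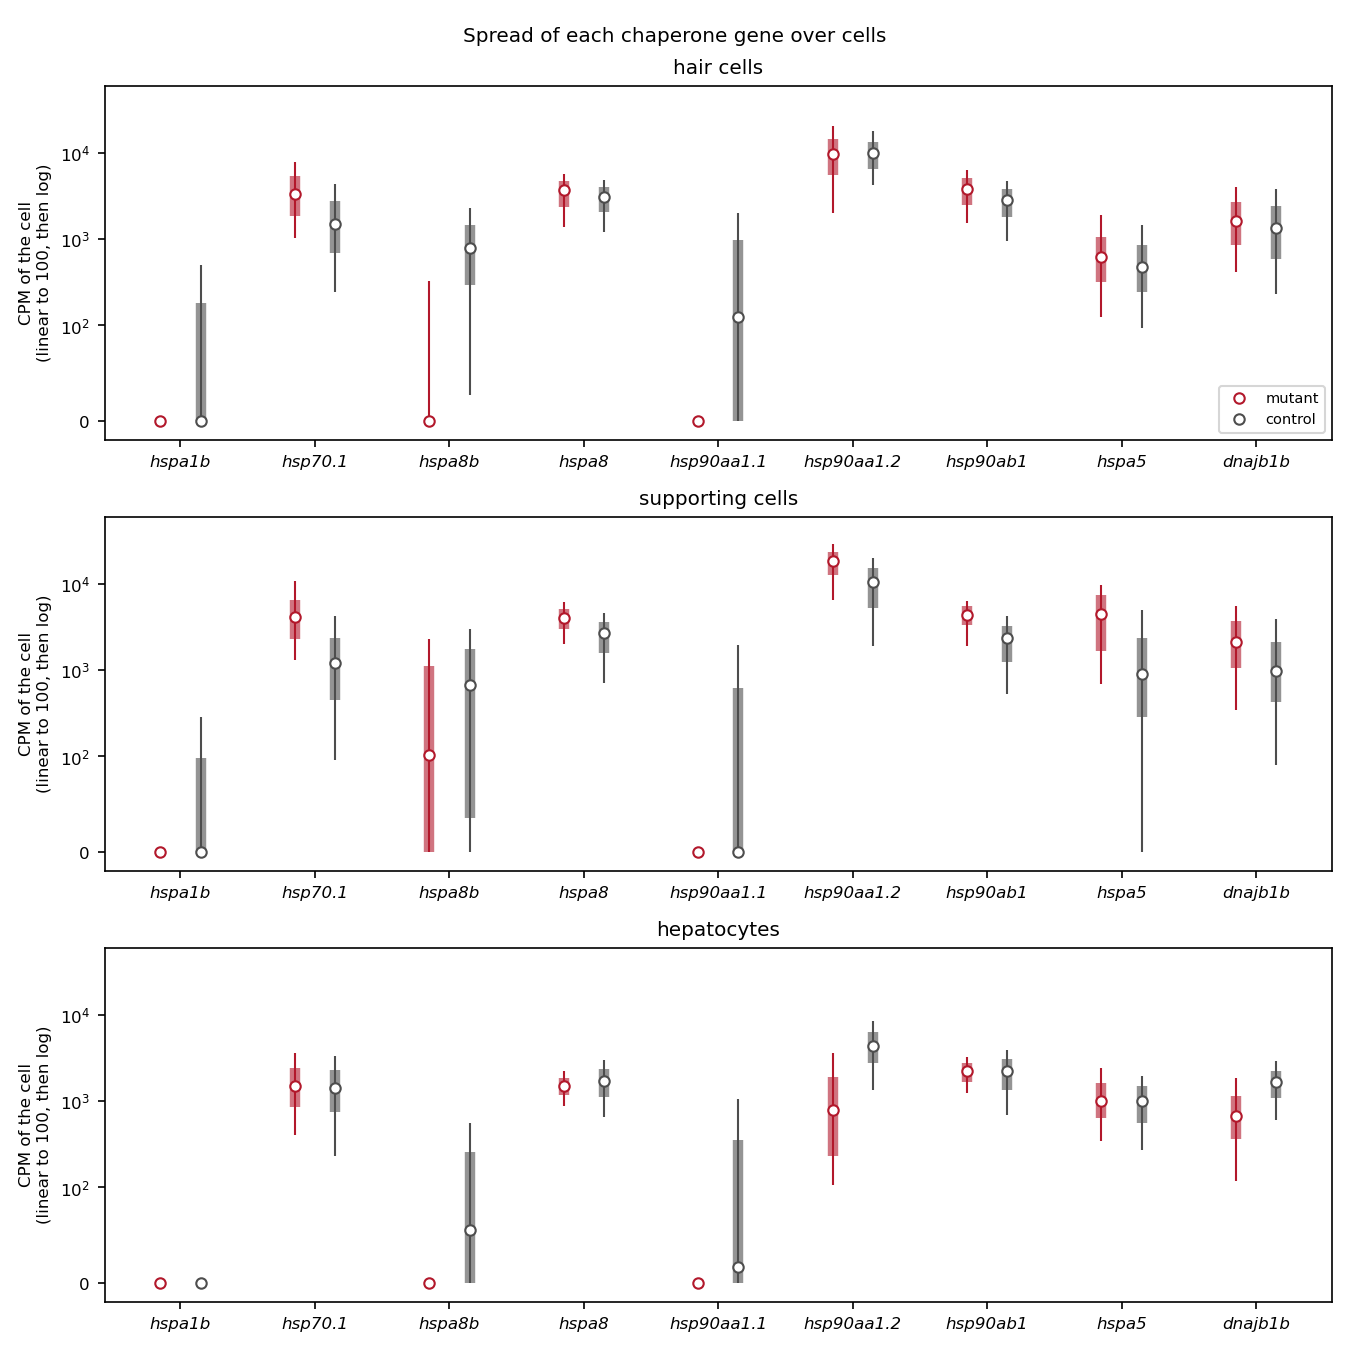
Spread of each chaperone gene over single cells, in CPM of the cell on an axis that is linear up to 100 and logarithmic above; circles are medians, thick bars the quartiles and thin lines the 10th to 90th percentiles, mutant in red and control in grey. The mutant medians of *hspa1b*, *hspa8b* and *hsp90aa1.1* lie at 0 in hair cells and hepatocytes, as does the control median of *hspa1b*, and *hspa5* is spread over a wide range in supporting cells of both libraries.

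Over cells, *hsp70.1* went with *dnajb1b* and with *hsp90aa1.2*. For *dnajb1b*, Spearman's rho over thinned hair cells was 0.49 in the mutant (1170 cells) and 0.46 in the control (1404 cells). Over neurons it was 0.63 in the mutant and 0.55 in the control. For *hsp90aa1.2*, rho was 0.51 in mutant and 0.23 in control hair cells, and 0.41 in mutant and 0.44 in control neurons. *hspa8* and *hsp90ab1*, the constitutive forms, had rho of 0.42 in mutant and 0.38 in control hair cells. Of the 3 genes that were lower in the mutant, *hspa1b* and *hspa8b* had rho of 0.04 in mutant and 0.24 in control hair cells, where most counts are 0. Cells of a gate share a library, and these values are descriptions. Over the 12 profiles of 6 gates in 2 libraries, the genes whose log2(CPM + 1) was most like that of *hspa1b* were *pkd2* (Pearson's r 0.97), *usta* (0.96), *dnajb2* (0.95), *FP089511.1* (0.94) and *taf4a* (0.94). Those most like *hspa5* were *sil1* (0.92), a nucleotide exchange factor for BiP, *ppp4cb* (0.91), *mboat7* (0.91), *erp44* (0.90) and *gmppb* (0.89). These profiles share libraries, so any gene that differs between them in the same direction scores high.

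The other chaperone lists are read in hair cells beside the 17.4% of all genes called lower and the 5.31% called higher. Of 10 other cytosolic Hsp70 and Hsp110 genes with at least 100 UMIs 2 were called lower and 0 higher, with a median log2 ratio of 0.40, beside -0.09 over all genes. The lower ones were *hspa12a*, at 24 mutant and 95 control UMIs (-1.47), and *hsph1*, an Hsp110 that exchanges nucleotide on Hsp70. *hsph1* had 269 CPM in mutant and 973 CPM in control hair cells (-1.85, -1.90 to -1.81), and 21.2 CPM in mutant and 490 CPM in control hepatocytes (-4.53). Of 14 DnaJ genes 1 was called lower, *dnajb4* (2.73 CPM in mutant and 38.7 CPM in control hair cells, -3.83), and 1 higher, *dnajb12b* (1.04). The lower one, *dnajb4*, passed the minimum of 100 UMIs only through the control library. *dnajb2* was at -0.89 in hair cells and at -2.22 in hepatocytes.

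Of 27 cochaperones of Hsp70 and Hsp90, 3 were called lower and 1 higher in hair cells, with a median of 0.05, so the lower ones were a smaller share than over all genes. *ahsa1a*, which stimulates the Hsp90 ATPase, had 17 mutant and 425 control UMIs (-4.13), and *unc45b*, the myosin chaperone that works with *hsp90aa1.1*, had 37 mutant and 895 control UMIs (-4.08). The other, *bag2*, an exchange factor of Hsp70 named here after its value was seen, had 194 mutant and 1914 control UMIs (-2.79). *chordc1b* was higher (1.19) and *bag1* at 0.89. Of 6 small heat shock proteins 4 were called lower and 0 higher, with a median of -1.998. *hspb9* had 0 mutant and 183 control UMIs, at least 42.7-fold lower against 3 UMIs over the gate, and *hspb11* had 6 mutant and 309 control UMIs (-5.17). *ahsa1a*, *unc45b*, *hspb9* and *hspb11* passed the minimum only through the control library. *hspb1* (-2.06) and *hspb8* (-1.93), also named after their values were seen, were the others. The heat shock factors had no call among 4 genes: *hsf1*, the main driver of the heat shock response, had 10.9 CPM in the mutant and 11.3 CPM in the control (-0.05, -0.33 to 0.23), and *hsf2* was at 0.45.

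**Figure D5:**
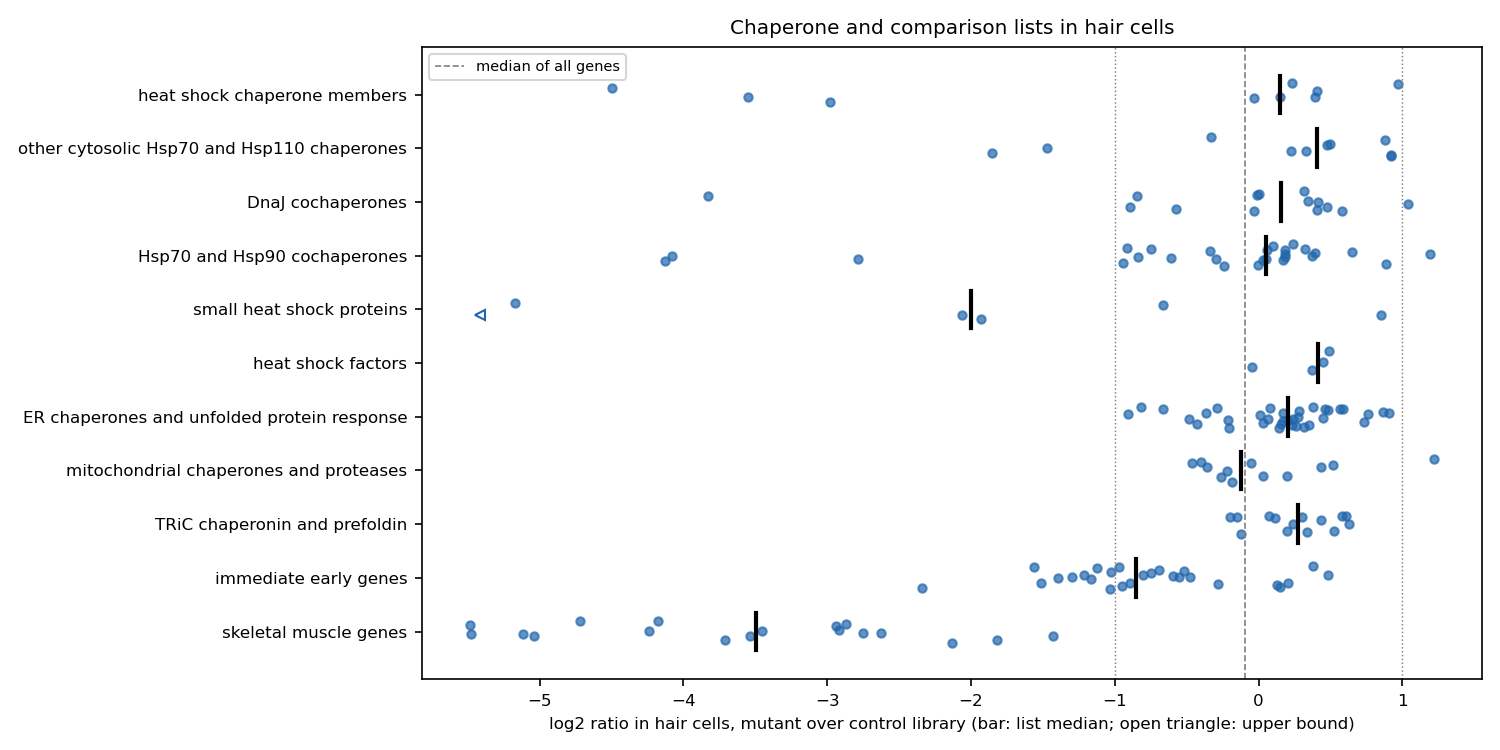
Log2 ratios in hair cells, mutant over control library, of every gene with at least 100 UMIs in 11 lists; black bars are list medians, dotted lines the call threshold, the dashed line the median of all genes, and the open triangle an upper bound from 0 mutant UMIs. The Hsp70, DnaJ and cochaperone lists have medians between 0.05 and 0.40 with a few genes far below, the small heat shock proteins have a median of -1.998, and the 18 skeletal muscle genes all lie below -1.

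Of 35 genes of endoplasmic reticulum chaperones and the unfolded protein response, 0 were called in either direction in hair cells (median 0.20). In supporting cells, 15 of 32 were called higher and 0 lower, beside 6.35% and 21.1% of all genes, with a median of 0.97 beside -0.13 over all genes. The mix of inner ear and lateral line types differed between the libraries in this gate, and its part in these calls was not tested. *manf*, a secreted survival factor retained in the reticulum, had 642 CPM in mutant and 175 CPM in control supporting cells (1.88), and *pdia6*, a disulfide isomerase, 414 CPM in the mutant and 143 CPM in the control (1.53). Macrophages had 7 higher and 1 lower, *ern1*, of 32 (all genes: 8.22% higher and 13.7% lower). Neurons had 4 higher of 36, *manf*, *xbp1*, *ddit3* and *serp1*, and 2 lower, *dnajb9a* and *eif2ak3* (all genes: 5.61% higher and 15.8% lower). Macrophage *ern1*, at 51 mutant and 117 control UMIs, passed the minimum only through the control library. So did *dnajb9a* in neurons, at 29 mutant and 101 control UMIs. Skin had *xbp1* higher and 0 lower of 7 (all genes: 9.31% higher and 18.8% lower). Hepatocytes had 0 higher and 4 lower of 34, *dnajc3b*, *herpud1*, *ern1* and *eif2ak3* (all genes: 5.43% higher and 19.4% lower). These genes, of which *ern1* and *eif2ak3* encode stress sensors of the reticulum and *xbp1* a transcription factor of the same response, were named after their values were seen. The TRiC chaperonin and prefoldin genes, which fold actin and tubulin, had 0 of 14 called in hair cells (0.27), and mitochondrial chaperones 1 higher, *grpel2* (1.22), and 0 lower of 12 (-0.12). Of 26 immediate early genes, which dissociation can also switch on, 10 were called lower and 0 higher in hair cells (-0.85), with *klf4* at -2.34 and *egr3* at -1.56. *jun* (0.38) and *ier5* (0.48) were the highest of that list.

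Transcripts of some other cell types were lower in mutant hair cells, as the 3 genes were, and others were higher. Summed hepatocyte markers stood at 19132 CPM in mutant and 8255 CPM in control hair cells, neuron markers at 716 CPM in the mutant and 524 CPM in the control, and macrophage markers at 64.3 CPM in the mutant and 30.3 CPM in the control. The part of these transcripts in the ratios was not tested. Muscle and globin transcripts were lower. The 20 skeletal muscle genes, a list added after values were seen, summed to 35.3 CPM in mutant and 327 CPM in control hair cells, and 18 of the 18 with at least 100 UMIs were called lower (median -3.49). Their UMIs lay mostly in the control library, which favours lower calls among genes that pass the minimum. Nothing is read from that count. None of those 18 was at 0 in either library, and *myl1* at 5 mutant and 320 control UMIs was the lowest (-5.48). The muscle sum was 43.2 CPM in mutant and 474 CPM in control supporting cells, 22.9 CPM in mutant and 255 CPM in control macrophages, and 16.5 CPM in mutant and 163 CPM in control hepatocytes. Neurons were the exception in this sum, with 317 CPM of muscle genes in the mutant and 206 CPM in the control. *hsp90aa1.1* was at -4.23 there. By share of cells they were no exception, since 80.0% of mutant and 33.8% of control neurons held no muscle UMI. The muscle sum of mutant neurons, used again below, thus came from a minority of cells. Globin genes took 5.69 CPM in mutant and 22096 CPM in control hair cells.

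In the control library *hsp90aa1.1* stood at 1.299 to 2.84 times the muscle sum in all 6 gates. Within supporting cells that band did not hold. The control muscle sum was 1015 CPM in the lateral line type, above the *hsp90aa1.1* level given earlier. It was 147 CPM in the inner ear type, far below the *hsp90aa1.1* level. Mutant muscle sums, 39.2 CPM and 23.3 CPM, also lay above it in the lateral line type and below it in the inner ear type. In the mutant gates *hsp90aa1.1* ran between 0.0609 times the muscle sum in neurons and 1.37 times in macrophages, apart from skin with 0 UMIs. *hspa8b* stood at 3.34 times the muscle sum in mutant and 2.85 times in control hair cells. Against that sum it was also higher in mutant supporting cells and macrophages, and lower in the other gates. *hspa1b* stood at 0.343 times the sum in mutant and 0.433 times in control hair cells. Only supporting cells had the higher *hspa1b* value in the mutant. The lower mutant level was also there in barcodes without muscle UMIs. Among hair cells without any, 822 of 1185 in the mutant and 363 of 1414 in the control, *hsp90aa1.1* had 22.3 CPM in the mutant and 581 CPM in the control (-4.70), *hspa8b* 103 CPM in the mutant and 980 CPM in the control (-3.25), and *hspa1b* 10.6 CPM in the mutant and 160 CPM in the control (-3.92). Neurons without a muscle UMI gave log2 ratios of -4.79 for *hsp90aa1.1*, -3.02 for *hspa8b* and -3.74 for *hspa1b*. Over all neurons these were -4.23, -2.92 and -4.00. With barcodes over 1% globin left out, hair cells gave -4.59 for *hsp90aa1.1*, -3.03 for *hspa8b* and -3.61 for *hspa1b*. With those barcodes in, the values were -4.50, -2.98 and -3.55. The direction of the shift differed by gene and gate. In neurons *hspa1b* went from -4.00 to -3.75 and *hsp90aa1.1* from -4.23 to -4.32. In hepatocytes *hspa1b* went from -5.10 to -4.58 and *hsp90aa1.1* from -6.58 to -6.62. Both ways of leaving out barcodes were chosen after seeing the data. A cell without a counted muscle UMI can still hold free RNA, so leaving out barcodes does not remove it. The part of free RNA of other cells in these levels was not tested.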

How the data were processed

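UMI counts per gene and barcode were deposited as filtered matrices that the authors made with Cell Ranger (9.0.1 in the mutant table and 7.1.0 in the control table, per the file headers) on GRCz11; the intron setting is not given in the sources used here. Both genotypes have 1 library, so no test was possible. Barcodes needed 500 detected genes and no more than 20% mitochondrial UMIs. They were kept with any doublets and gated by marker UMIs; gates may overlap. UMIs were summed per gate and given as CPM with exact Poisson intervals, log2 ratios with exact conditional binomial intervals, and shares of cells with Clopper-Pearson intervals, all 95%. PCR and library variation are outside them. A count of 0 was set to 3 UMIs for bounds. Ratios compare whole cell populations, so RNA per cell cannot be told apart from composition within a gate. The genes and lists were chosen with earlier results of these data known. Every chaperone gene was named in each gate; of each further list, the genes with the 2 lowest and 2 highest ratios in hair cells could be named. Alternatives covered filters, gates, doublets (Scrublet in scanpy 1.11.5), scaling, thinning to 2000 UMIs, and barcodes with globin or muscle UMIs. The calculation was run on simulated counts with known ratios, drawn from the same Poisson model that the intervals assume. Those counts hold no library difference, free RNA or shared reads, so they check the calculation only. Python 3.11.15, numpy 2.4.6, scipy 1.17.1 and pandas 2.3.3 were used. Gene neighbours were read from the order of genes in the RefSeq gene table. Sequences were not used here, so the likeness of paralogs was not measured.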

Additional observations from a re-analysis of the deposited data

Results flagged for a closer look

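For 4 chaperone genes the log2 ratios, mutant over control library, lay on opposite sides of 0 in different gates, with counting intervals that did not include 0. The difference between gates was not tested, since each gate has 1 library per genotype. *hsp90aa1.2* was at -1.74 in hepatocytes and 0.67 in supporting cells. *dnajb1b* was at -1.05 in hepatocytes and 0.73 in supporting cells. *hspa8* was at -0.34 in hepatocytes and 0.48 in supporting cells. *hsp90ab1* was at -0.12 in hepatocytes and 0.76 in neurons. Hepatocytes gave the lower side for all 4. Their muscle and globin levels, at 16.5 and 13.98 CPM in the mutant and 163 and 15689 CPM in the control, were also lower in the mutant. Summed hepatocyte markers in this gate were higher, at 149534 CPM in the mutant and 73179 CPM in the control. The part of these differences in the ratios was not tested.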

How the results depend on the processing

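The 54 log2 ratios of 9 genes in 6 gates were recomputed under up to 11 alternatives each, 585 values in all, of which 577 kept the sign. *hspa1b*, *hspa8b* and *hsp90aa1.1* kept a negative sign in 195 of 195, with values between -7.72 and -0.25. These include skin, where the kept mutant cells held 0 UMIs of these genes. With 3 UMIs put in for a count of 0, such a value is a bound and not a ratio. The -0.25 is such a bound, for *hspa1b* in skin. Outside skin the highest value was -0.52, for *hspa8b* in supporting cells. The sign turned for *hsp90aa1.2* in hair cells (4 of 11, all between -0.07 and 0.06) and, in 2 of 11 each, for *hsp70.1* (-0.10 to 0.22) and *hsp90ab1* (-0.16 to 0.07) in hepatocytes. Among counts of called genes, the higher count in hair cells was 1 in place of 0 under stricter gates, without barcodes over 1% globin and with ratios centred on the median gene. In neurons the higher count was 1 in place of 2 without those barcodes and with globin and mitochondrial UMIs left out of the CPM. In skin the lower count was 0 in place of 2 without the globin barcodes, without barcodes holding a muscle UMI and after thinning, and the higher count was 2 in place of 1 for barcodes in exactly 1 gate and 0 without the globin barcodes, with globin and mitochondrial UMIs left out, after thinning and after centring. In hepatocytes the lower count was 3 in place of 5 after thinning. The minimum of 100 UMIs was kept in those subsets, so fewer genes qualified. Stricter gates left no skin value, since a library then had no cells. The alternatives on globin barcodes and muscle UMIs were chosen after seeing the data. With 1 library per genotype no replicate could be left out. No paired analysis was possible because the result comes from no test. Values in skin rest on 17 mutant and 42 control cells, and several mutant values of the 3 lower genes on fewer than 100 UMIs.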
